A study of Mus musculus with 65 samples.

Results

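Ion channels and gap junctions were followed through 65 single cells of the embryonic mouse cortex, as 52 of the 10407 genes measured. Members were taken by gene name alone: the rows whose symbol begins with Kcn (potassium channels and their partners), Scn and a digit (sodium channels), Cacn (calcium channels), Clcn and Clic (chloride channel families), Hcn, Trpc, Trpm or Trpv, Ano (anoctamins), or Gja and Gjc (connexins). Of the 52, 18 were potassium channel rows and 34 were all others. Piezo and Gjb genes belong to the same rule and were not analysed here. A name is no proof of a channel: Kcnq1ot1 and Kcnmb4os2 are non-coding RNAs that run antisense to a channel gene, and Trpc4ap is a protein that binds a TRP channel.

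The cells came from CD1 embryos, were labelled neuronal progenitors, and were taken by Patch-seq, in which a cell's content is drawn into a patch pipette and sequenced. The series asks how apical progenitors of the cortex respond to a younger host. Transplanted cells (19) were E15 progenitors labelled as placed in an E12 environment. The others were wild-type cells labelled with FlashTag, a fluorescent dye that marks cells dividing at the ventricular surface, at embryonic day 15 (E15, 26 cells) or embryonic day 12 (E12, 20 cells). Because no animal or litter is named in the labels, a group was taken as 1 sample, its cells were not used as replicates, and no p-value was made. Any difference between groups therefore has no replicate check.

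Ion channels set the membrane potential of a cell. Potassium channels that are open at rest pull it toward more negative values, sodium and calcium channels carry the fast inward currents of excitable cells, and chloride channels and transporters act on cell volume and on the compartments inside the cell. In the mouse cortex the resting potential of apical progenitors is known to become more negative as neurogenesis proceeds. Gap junctions, built from connexins, couple neighbouring radial glia in the ventricular zone and pass ions and small molecules between them.

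Expression is given as CPM, the reads of a gene per 1000000 reads of all genes, from the reads of a group's cells added up unless said otherwise. Bounds in parentheses are exact 95% limits, Poisson for CPM, binomial for shares and conditional binomial for ratios. Limits for CPM and ratios treat each read as independent. PCR copies were counted without molecular identifiers, so these limits are too narrow even for counting error. None of the limits covers differences between animals, and those for CPM and ratios leave out the spread between cells. Fewer cells with a gene cannot be told apart here from less RNA per cell in a sum. Log2 ratios carry 1 CPM in both terms. A member entered a comparison at 5 CPM or more in either group and was called past 2-fold where its log2 ratio was 1 or more, or -1 or less.

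Depth per cell had a median of 166134 reads in the transplanted group (range 22358 to 3622411), 998630 in the E15 group (11449 to 4560871) and 148824 in the E12 group (10928 to 1635767). In 5 of the 19 transplanted cells, 11 of the 26 E15 cells and 0 of the 20 E12 cells more than 8000 genes had a read, and these 16 many-gene libraries held 62.6% of all reads. Markers of other cells differed between the groups and with these libraries, and their part in the results was not tested. Genes of ventral telencephalon and interneurons (14 measured) summed to 2384, 3091 and 347 CPM in transplanted, E15 and E12 cells, and to 1740, 637 and 347 CPM without the many-gene libraries. Microglia and macrophage genes (16 measured) summed to 1255, 3558 and 127 CPM, and to 2057, 1373 and 127 CPM without them. Erythroid genes (5 measured) summed to 15773, 2636 and 2958 CPM, and to 43047, 6283 and 2958 CPM without them, and 5 of 5 were past 2-fold higher in transplanted than in E15 cells (median log2 ratio 2.63). Apical progenitor genes (21 measured) were read in every cell, with sums of 7837, 7905 and 10922 CPM, and of 15904, 21542 and 10922 CPM without those libraries. Values without the many-gene libraries stand beside the main results below. They are not an even check over cells: 1 cell held 55.7% of the transplanted reads left (replicate 19, with 7827 genes), 1 held 26.7% of those of E15 (replicate 13, with 7749 genes) and 1 held 33.1% of those of E12 (replicate 5). The labels also put each cell in 1 of 8 pools, A to H, without saying what a pool shared; pool F held no transplanted cell. Cells are numbered within a group by the order of deposition, which only names them.

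The number of members with a read followed the number of genes detected. In the many-gene libraries 33 to 48 of the 52 members had a read in transplanted cells and 31 to 50 in E15 cells. In the other libraries it was 4 to 29 in transplanted cells, 5 to 33 in E15 cells and 1 to 27 in E12 cells. With every cell thinned to 25000 reads, the medians were 11 members in 17 transplanted cells, 17 in 24 E15 cells and 8 in 18 E12 cells. For potassium channel members the thinned medians were 2, 5 and 1 of 18, and for the other members 9, 11.5 and 6 of 34. E15 cells thus had the most members with a read at equal depth, in both classes. All genes with a read were not counted at that depth, so the members cannot be set apart from genes in general. At full depth the median cell had 5035 genes with a read in transplanted, 7497.5 in E15 and 3748.5 in E12 cells.

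**Figure D1:**
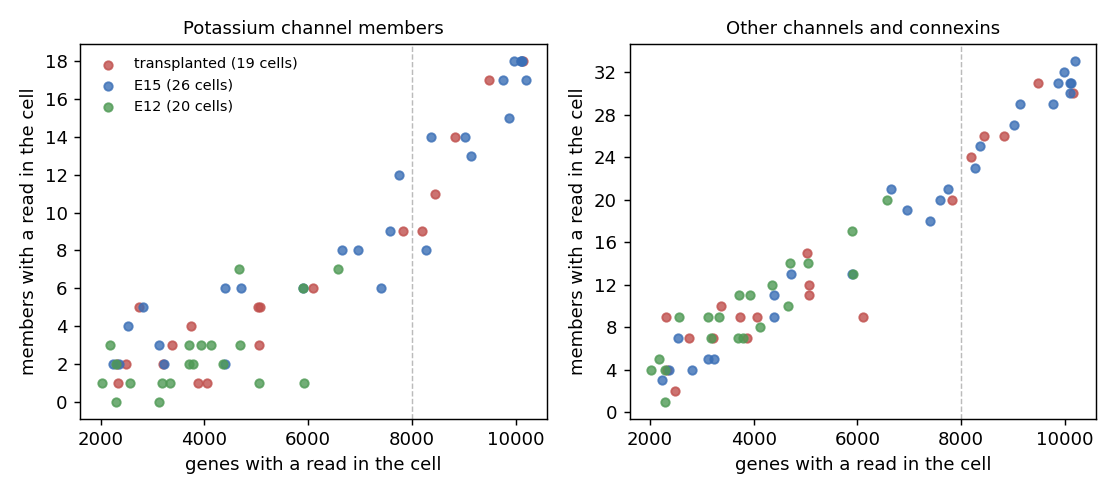
Members with a read in each cell (vertical axis) against the genes with a read in the same cell (horizontal axis), for the 18 potassium channel members on the left and the 34 other members on the right. Each point is 1 cell, coloured by group, and the dashed line marks 8000 genes; both counts climb with the genes detected, and the 16 libraries right of the line have 8 to 18 potassium channel members and 23 to 33 of the others.

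More potassium channel members were past 2-fold higher than lower at E15 against E12, and the median of the other members was near that of all genes. In E15 over E12 cells 12 of 17 potassium channel members that entered were past 2-fold higher and 2 were lower, with a median log2 ratio of 2.01. The other members counted 10 of 32 higher and 6 lower (median 0.12), and all genes had a median of -0.03. Together these were 22 of 49 members higher, where 25.3% of all genes were called higher, and 8 lower, where 20.3% were. Without the many-gene libraries 7 of 13 potassium channel members were higher and 2 lower (median 1.16), and 11 of 31 others were higher and 8 lower (median 0.14). On that footing 18 of 44 members were higher against 24.2% of all genes, and 10 were lower against 21.6%. Every gene measured had a read in 6 or more cells, so a member without E12 reads is present through the other groups alone. Kcnab3 was read in 11 E15 cells, all many-gene libraries, and in no E12 cell. Such libraries held 99.2% of the E15 reads of Kcnh8 and 99.0% of those of Kcnn1. The part of this limit in the counts of any comparison was not tested, and all genes were not matched to the members by level.

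Against E15 cells, transplanted cells had more potassium channel members past 2-fold lower than higher. In transplanted over E15 cells 1 of 18 potassium channel members was past 2-fold higher and 6 were lower (median -0.54), while 3 of 33 others were higher and 4 lower (median -0.17). The 4 members called higher compare with 4.71% of all genes and the 10 called lower with 11.8%, and the median of all genes was -0.08. In transplanted over E12 cells 10 of 18 potassium channel members were higher and 4 lower (median 1.46), and 8 of 31 others were higher and 8 lower (median -0.14). All genes were called higher in 22.9% and lower in 24.7% of cases there, with a median of -0.09. The comparisons share groups, so they are not independent of each other.

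The excess of potassium channel members over E12 cells was not seen in transplanted cells without the many-gene libraries. Without them 4 of 11 potassium channel members were higher and 4 lower in transplanted over E12 cells (median 0.060), and 7 members were under 5 CPM in both groups. In transplanted over E15 cells 2 of 15 were then higher and 9 lower, a median of -1.31. Over all members that made 9 higher and 23 lower of 44 against E15 cells, where 18.7% of all genes were higher and 28.0% lower. Against E12 cells it made 9 higher and 15 lower of 38, where the shares of all genes were 22.5% and 29.8%.

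A narrower set of members was past 2-fold the same way on summed CPM, on the mean CPM per cell, with each single cell left out and without the many-gene libraries. In E15 over E12 cells 11 of 49 members were higher (22.4%, against 12.7% of all genes under the same rule). They were Kcnd3, Kcne1l, Kcnip1, Kcnk10, Kcnk2, Kcnmb4, Cacnb1, Scn3a, Scn3b, Trpc4 and Trpv2. Another 2 of 49 were lower (4.08% against 4.53%), Clcn5 and Gja1. In transplanted over E12 cells 6 of 49 were higher (12.2% against 9.66%), Kcnab2, Kcnab3, Kcnd3, Kcnk10, Kcnk2 and Scn3a. There 3 of 49 were lower (6.12% against 6.62%), Cacna1b, Clcn3 and Clcn5. Both of these lower shares were near those of all genes. In transplanted over E15 cells only Gja1 of 51 members was higher (1.96% against 0.620%), and Kcne1l, Cacnb1 and Clcn5 were lower (5.88% against 3.94%).

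**Figure D2:**
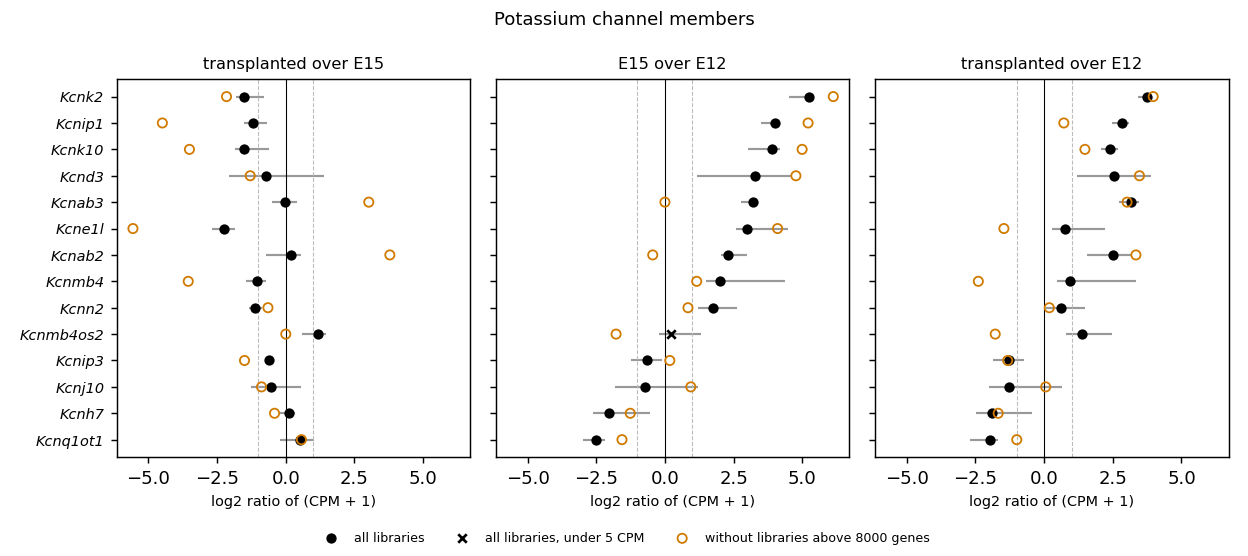
Log2 ratio of (CPM + 1) for 14 of the 18 potassium channel members in transplanted over E15, E15 over E12 and transplanted over E12 cells. The members shown are the set's markers, those meeting the narrower rule, and the 2 with the highest summed CPM in each family. Black points are ratios of summed CPM over all libraries, grey bars span the ratios with each single cell left out, crosses mark members under 5 CPM in both groups, open circles leave out the libraries above 8000 genes, and dashed lines mark 2-fold. In the middle panel 9 black points lie right of the 2-fold line, from Kcnk2 at 5.26 down, and 2 lie left of it. Members past 2-fold under the narrower rule are shown by choice, so these counts are partly set by it.

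The tandem-pore leak channels Kcnk2 and Kcnk10 were both past 2-fold higher in E15 than in E12 cells. Kcnk2, which encodes TREK-1, a leak channel that responds to membrane stretch, lies on chromosome 1 (GRCm38, 189207930 to 189402273). It reached 23.04 CPM (20.5 to 25.8) in transplanted cells, 68.1 CPM (65.5 to 70.8) in E15 cells and 0.809 CPM (0.221 to 2.07) in E12 cells. A read was found in 9 of 19 (47.4%, 24.4 to 71.1) transplanted, 18 of 26 (69.2%, 48.2 to 85.7) E15 and 4 of 20 (20%, 5.73 to 43.7) E12 cells. The E12 level rests on 4 reads, 1 in each of 4 cells. Per cell, transplanted cells ran from 0 through a median of 0 to 957 CPM, E15 cells from 0 through 20.3 to 392 CPM, and E12 cells from 0 through 0 to 91.5 CPM. Cells at 0 occurred in all 3 groups, so the ranges overlap, but the E15 median was above 0 and both others were not.

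For Kcnk2 the ratio of E15 to E12 cells was 84.2 (32.8 to 309), with a log2 ratio of 5.26. The ratio of transplanted to E12 cells was 28.5 (11.002 to 105), with a log2 ratio of 3.73. Without the many-gene libraries the levels were 27.4 CPM in transplanted, 125 CPM in E15 and 0.809 CPM in E12 cells. At 25000 reads per cell a read remained in 5 of 17 transplanted, 13 of 24 E15 and 2 of 18 E12 cells. Kcnk2 was thus above the E12 level in both E15 and transplanted cells in each of these forms. By pool, E15 cells were higher in 7 of 8, and transplanted cells in 3 of 7 and lower in 3 of 7 pools that hold both groups. On the mean CPM per cell the E15 over E12 log2 ratio was 2.69.

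Transplanted and E15 cells could not be ordered for Kcnk2. Summed reads gave a log2 ratio of -1.52 and transplanted cells were lower in 7 of 7 pools that hold both groups. The mean CPM per cell was 102 in transplanted and 45.9 in E15 cells, a log2 ratio of 1.13, and thinned reads gave 1.31. Of the transplanted cells, the shallow replicates 16 and 8 were far above the others, at 957 and 827 CPM against 35.5 CPM or less in every other transplanted cell. Replicate 8 also held 26165 CPM of microglia and macrophage genes and replicate 16 held 1249 CPM; the part of these cells in the result was not tested. In E15 cells replicate 13 alone held 45.2% of the Kcnk2 reads, and the E15 level without it was 40.5 CPM.

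Kcnk10 encodes TREK-2, a leak channel of the same subfamily, and was lowest in E12 cells too. Its summed levels were 5.35 CPM (4.15 to 6.78) in transplanted, 17.05 CPM (15.8 to 18.4) in E15 and 0.202 CPM (0.00512 to 1.13) in E12 cells, from reads in 6 of 19, 14 of 26 and 1 of 20 cells. A single read makes the E12 level, so the ratio of E15 to E12 cells, 84.3 (15.1 to 3333), has a wide interval. E15 cells were higher than E12 cells in 8 of 8 pools, where all genes had a median within-pool log2 ratio of 1.33. Without the many-gene libraries the levels were 2.37, 37.3 and 0.202 CPM, and E15 replicate 13 held 52.9% of the E15 reads.

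Kcne1l, the mouse gene for KCNE5, encodes a single-pass accessory subunit that, in work on the human protein, holds back currents of KCNQ channels. It lies on chromosome X (GRCm38, 142304752 to 142306294). Its level was 13.6 CPM (11.7 to 15.8) in transplanted cells, 67.8 CPM (65.2 to 70.5) in E15 cells and 7.69 CPM (5.44 to 10.6) in E12 cells. Reads were present in 7 of 19 (36.8%, 16.3 to 61.6) transplanted, 18 of 26 (69.2%, 48.2 to 85.7) E15 and 4 of 20 (20%, 5.73 to 43.7) E12 cells. Per cell the highest values were 117, 1212 and 148 CPM, and only the E15 median, 25.5 CPM, was above 0. The E15 cells were the high group, although cells at 0 occurred in all 3 groups and the ranges overlap.

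Kcne1l was higher in E15 cells than in both other groups in each form computed here. The log2 ratio of transplanted over E15 cells was -2.24 with a ratio of 0.201 (0.171 to 0.234), lower in 6 of 7 pools with both groups, and that of E15 over E12 cells was 2.99 with a ratio of 8.82 (6.41 to 12.5), higher in 7 of 8 pools. On mean CPM per cell these log2 ratios were -3.05 and 3.11, and without the many-gene libraries -5.56 and 4.10. Thinned reads found it in 3 of 17 transplanted, 11 of 24 E15 and 2 of 18 E12 cells. Between transplanted and E12 cells the log2 ratio was 0.75 with all libraries and -1.46 without the many-gene ones, so no order held there. The E15 cells highest in Kcne1l, replicates 8, 19, 2 and 13, ran from 256.5 to 1212 CPM, and none was a many-gene library. Of these, replicates 8, 2 and 13 held 42411, 25005 and 32810 CPM of apical progenitor genes (21 measured). The median E15 cell outside the many-gene libraries held 24194 CPM of them, and the median E12 cell 11117 CPM. Their part in the result was not tested.

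**Figure D3:**
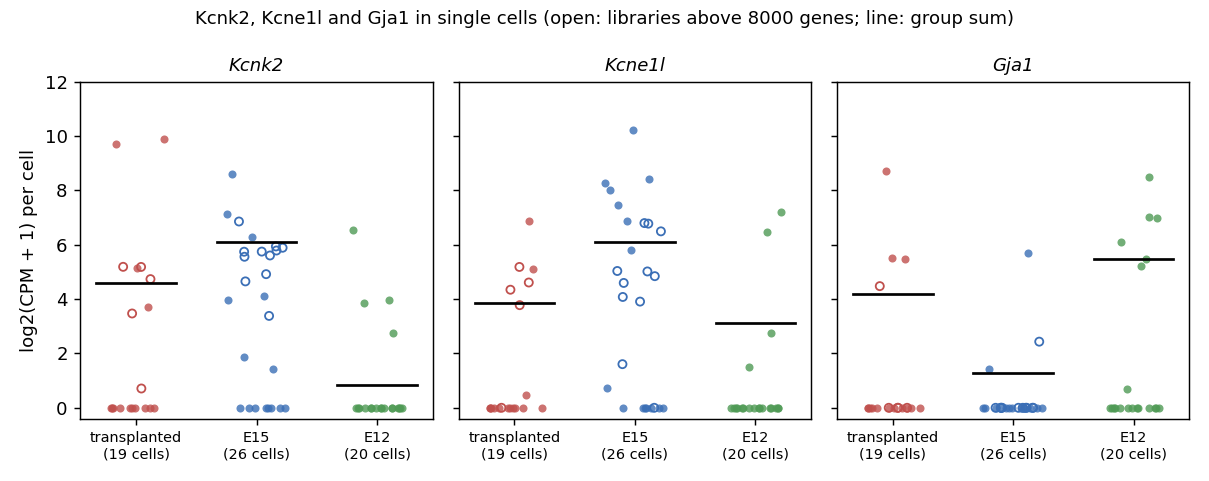
Level per cell of Kcnk2, Kcne1l and Gja1 as log2(CPM + 1), with transplanted, E15 and E12 cells from left to right. Each point is 1 cell, open circles are libraries above 8000 genes, and the black line is the level of the group's summed reads. Kcnk2 and Kcne1l have reads in 18 of 26 E15 cells each and in 4 of 20 E12 cells each, and Gja1 in 3 of 26 E15 cells against 7 of 20 E12 cells.

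The 3 genes differ in the sequence before their starts, which are shown because Kcnk2 and Kcne1l were both higher at E15 and Gja1 was lower. Each window holds 250 bases before and 50 after a RefSeq start (GRCm38.p6), written along the gene's own strand. Capitals mark matches on either strand of GGGCGG (the GC box), of CCAAT (bound by NF-Y), or of either part of the site of REST, a repressor of neuronal genes, searched as CAGCACC and, apart from it, as GGACAG. The reads come from the 3′ end of transcripts and do not tell which start was used. For Kcnk2 the farthest upstream of 4 windows is shown.
Kcnk2, chr1:189402224-189402523, minus strand: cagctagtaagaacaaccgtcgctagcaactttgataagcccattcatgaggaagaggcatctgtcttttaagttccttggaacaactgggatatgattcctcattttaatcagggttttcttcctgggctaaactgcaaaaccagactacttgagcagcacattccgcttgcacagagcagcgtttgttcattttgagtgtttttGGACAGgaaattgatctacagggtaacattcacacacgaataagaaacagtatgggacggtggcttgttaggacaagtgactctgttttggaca
Kcne1l, chrX:142306149-142306448, minus strand: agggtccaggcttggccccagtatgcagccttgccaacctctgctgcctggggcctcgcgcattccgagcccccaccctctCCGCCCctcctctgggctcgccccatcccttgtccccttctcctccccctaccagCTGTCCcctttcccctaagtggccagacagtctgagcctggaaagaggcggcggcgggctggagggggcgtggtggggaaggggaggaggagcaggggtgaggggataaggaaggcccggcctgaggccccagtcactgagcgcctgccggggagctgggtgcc
Gja1, chr10:56377050-56377349, plus strand: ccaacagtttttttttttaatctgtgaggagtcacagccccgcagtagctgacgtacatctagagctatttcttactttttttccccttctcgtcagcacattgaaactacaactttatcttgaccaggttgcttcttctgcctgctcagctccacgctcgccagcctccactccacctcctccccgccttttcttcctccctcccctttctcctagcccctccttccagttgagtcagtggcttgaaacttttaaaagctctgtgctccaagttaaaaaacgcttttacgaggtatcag
Kcne1l has 69.7% G and C with 12 CpG, Kcnk2 43% with 6 and Gja1 47.7% with 8. Medians are 52.7% and 7 CpG over the windows of all genes, and 61.8% and 16 CpG over those of the members. Kcne1l holds 1 GC box and 1 GGACAG, Kcnk2 holds 1 GGACAG, and Gja1 holds none of the 4 motifs. GGACAG occurs in 22.2% of all windows of this length, GGGCGG in 35.7%, CCAAT in 37.4% and CAGCACC in 7.14%. Windows were found for 41 of the 52 members (66 windows), of which 50% hold GGGCGG, 27.3% CCAAT, 9.09% CAGCACC and 24.2% GGACAG. A match describes letters in the window and is not a binding site.

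Among voltage-gated potassium channels, Kcnd3 was past 2-fold higher in both E15 and transplanted cells than in E12 cells. It encodes Kv4.3, which carries a fast inactivating A-type current, and stood at 16.8 CPM (14.6 to 19.2) in transplanted, 28.3 CPM (26.6 to 30.1) in E15 and 2.02 CPM (0.970 to 3.72) in E12 cells. Reads were in 6 of 19, 10 of 26 and 2 of 20 cells, so most cells of every group had none. Its level came from few cells: transplanted replicate 16 held 64.95% of the transplanted reads and E15 replicate 13 held 81.2% of the E15 reads. Without that cell of each group the levels were 5.93 CPM in transplanted and 5.76 CPM in E15 cells. The log2 ratios of transplanted and E15 over E12 cells were no lower than 1.196 and 1.16 whichever single cell was left out.

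Kcnh7, for the ERG3 channel, ran the other way in sums, with 19.2 CPM (16.9 to 21.8) in transplanted, 17.6 CPM (16.3 to 19.03) in E15 and 74.9 CPM (67.4 to 82.9) in E12 cells. Reads were found in 7 of 19, 16 of 26 and 3 of 20 cells, so a smaller share of E12 cells had a read. E12 replicate 9 held 67.6% of the E12 reads, and the E12 level without it was 26.1 CPM.

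Partners of Kv channels had reads in more E15 cells, which were also the deepest, than in transplanted or E12 cells. Kcnip1 encodes a calcium-binding KChIP protein that attaches to Kv4 channels, and had 6.06 CPM (4.78 to 7.57) in transplanted and 15.1 CPM (13.9 to 16.4) in E15 cells, from 6 of 19 and 12 of 26 cells. None of the 20 E12 cells had a read, which allows a share of up to 16.8% of cells. Against an E12 floor of 3 reads over the group, 0.607 CPM, the E15 level was 24.9-fold and the transplanted level 9.98-fold that floor. The exact lower limits of the ratios to E12 cells were 20.2 and 7.92. Without the many-gene libraries Kcnip1 was at 0.647 CPM in transplanted and 36.01 CPM in E15 cells. Kcnip3, another KChIP, did not share this order, with 18.8 CPM in transplanted, 29.6 CPM in E15 and 47.3 CPM in E12 cells.

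The Kvβ subunits Kcnab2 and Kcnab3, cytoplasmic proteins that assemble with Kv channels, were scarce in E12 cells. Kcnab2 was at 8.10 CPM (6.61 to 9.82) in transplanted, 6.91 CPM (6.09 to 7.81) in E15 and 0.607 CPM (0.125 to 1.77) in E12 cells, where 1 cell held all 3 reads. Kcnab3 was at 8.02 CPM (6.54 to 9.74) in transplanted and 8.19 CPM (7.30 to 9.16) in E15 cells and had no read in any E12 cell. These levels were 13.2-fold and 13.5-fold the floor, with lower limits of 10.6 and 10.9 for the ratios to E12 cells. Nearly all E15 reads of this pair came from many-gene libraries. In the other E15 libraries Kcnab2 was read in 1 of 15 cells and Kcnab3 in 0 of 15, at 0.181 and 0 CPM, while the other transplanted libraries kept 15.3 and 7.11 CPM. The E15 over E12 excess of this pair was thus not seen without the many-gene libraries, and the transplanted over E12 excess was, from 3 of 14 and 1 of 14 cells. Transplanted replicate 19 held 63.1% of the transplanted Kcnab2 reads, and the level without it was 3.75 CPM.

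Both calcium-activated potassium channel genes named here had higher sums in E15 than in E12 cells. Kcnmb4, the β4 subunit of the large-conductance BK channel, was at 9.20 CPM (7.61 to 11.03) in transplanted, 19.9 CPM (18.5 to 21.4) in E15 and 4.25 CPM (2.63 to 6.50) in E12 cells, the last from a single cell. Kcnn2, the small-conductance channel SK2, was at 19.3 CPM (17.003 to 21.9), 43.5 CPM (41.4 to 45.7) and 12.3 CPM (9.44 to 15.9), from 9 of 19, 17 of 26 and 5 of 20 cells. Its E15 over E12 log2 ratio of 1.74 was 0.84 without the many-gene libraries. Transplanted cells were below E15 cells for both, with log2 ratios of -1.03 for Kcnmb4 and -1.13 for Kcnn2. Without the many-gene libraries no transplanted cell had a Kcnmb4 read.

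Kcnj10, the Kir4.1 inward rectifier known from astroglia, had no direction that held. Its levels were 15.8 CPM (13.7 to 18.1) in transplanted, 23.5 CPM (21.95 to 25.1) in E15 and 39.5 CPM (34.1 to 45.4) in E12 cells, while reads were in 5 of 19, 14 of 26 and 3 of 20 cells. E12 replicate 5 held 83.6% of the E12 reads. The transplanted over E12 log2 ratio was -1.27 on sums and 2.33 on the mean CPM per cell.

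Both non-coding rows depended on how cells were weighed. Kcnq1ot1, the long RNA that runs antisense within the imprinted Kcnq1 region, was at 22.3 CPM (19.7 to 25.005) in transplanted, 15.3 CPM (14.1 to 16.6) in E15 and 90.6 CPM (82.4 to 99.4) in E12 cells, with reads in 11 of 19, 16 of 26 and 5 of 20 cells. On the mean CPM per cell it was 60.2, 46.8 and 55.2 CPM, so its summed difference was not shared by the average cell. Kcnmb4os2 overlaps Kcnmb4 on the opposite strand of chromosome 10 (GRCm38, 116473163 to 116475319, against 116417861 to 116473878 for Kcnmb4). Strand use in the counting is not given in the sources used here, so reads of the pair in the shared stretch cannot be told apart. Kcnmb4os2 was at 8.02, 2.99 and 2.43 CPM, and outside the many-gene libraries 2 cells had a read, both of E12.

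The connexin Gja1 was the member past 2-fold higher in transplanted than in E15 cells under each condition of the narrower rule. Gja1, on chromosome 10 (GRCm38, 56377330 to 56402513), encodes connexin 43, a gap junction protein of radial glia. It was at 17.4 CPM (15.2 to 19.8) in transplanted cells, 1.41 CPM (1.06 to 1.85) in E15 cells and 43.7 CPM (38.1 to 49.9) in E12 cells. Reads occurred in 4 of 19 (21.1%, 6.05 to 45.6) transplanted, 3 of 26 (11.5%, 2.45 to 30.2) E15 and 7 of 20 (35%, 15.4 to 59.2) E12 cells, and the median cell of every group was at 0. The transplanted cells with reads were replicates 11, 7, 19 and 17, at 419, 44.7, 43.7 and 21.3 CPM, and the 3 E15 cells were at 50.4, 4.41 and 1.70 CPM. The highest E12 cells reached 361, 130.4 and 124.8 CPM. The ranges overlap through the many cells at 0, and the highest E15 cell lay above 3 of the 4 transplanted cells with a read.

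For Gja1 the log2 ratio of transplanted over E15 cells was 2.93 with a ratio of 12.3 (9.07 to 16.9), and 3.18 on the mean CPM per cell. It lay between 2.23 and 3.88 with any single cell left out and was 3.06 without the many-gene libraries. By pool, transplanted cells were higher in 2 of 7 and lower in 2 of 7 pools with both groups. The log2 ratio of E15 over E12 cells was -4.21 with a ratio of 0.0324 (0.0235 to 0.0439), lower in 6 of 8 pools. Transplanted over E12 cells gave -1.28 over all libraries and 0.02 without the many-gene ones, at 44.4 against 43.7 CPM. At 25000 reads per cell Gja1 was read in 3 of 17 transplanted, 2 of 24 E15 and 5 of 18 E12 cells. Transplanted replicate 19, with 51.1% of the transplanted Gja1 reads, held 64865 CPM of erythroid genes (5 measured), and replicate 11 held 11240 CPM; their part in the result was not tested.

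Gjc1, connexin 45, was read in more cells than Gja1 and had no summed ratio past 2-fold. Its levels were 53.2 CPM (49.2 to 57.3) in transplanted, 49.1 CPM (46.9 to 51.4) in E15 and 90.2 CPM (82.1 to 99.02) in E12 cells, from 16 of 19, 20 of 26 and 15 of 20 cells. Its log2 ratios on sums were 0.11 for transplanted over E15, -0.87 for E15 over E12 and -0.75 for transplanted over E12 cells. On the mean CPM per cell transplanted over E15 cells gave 1.13.

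**Figure D4:**
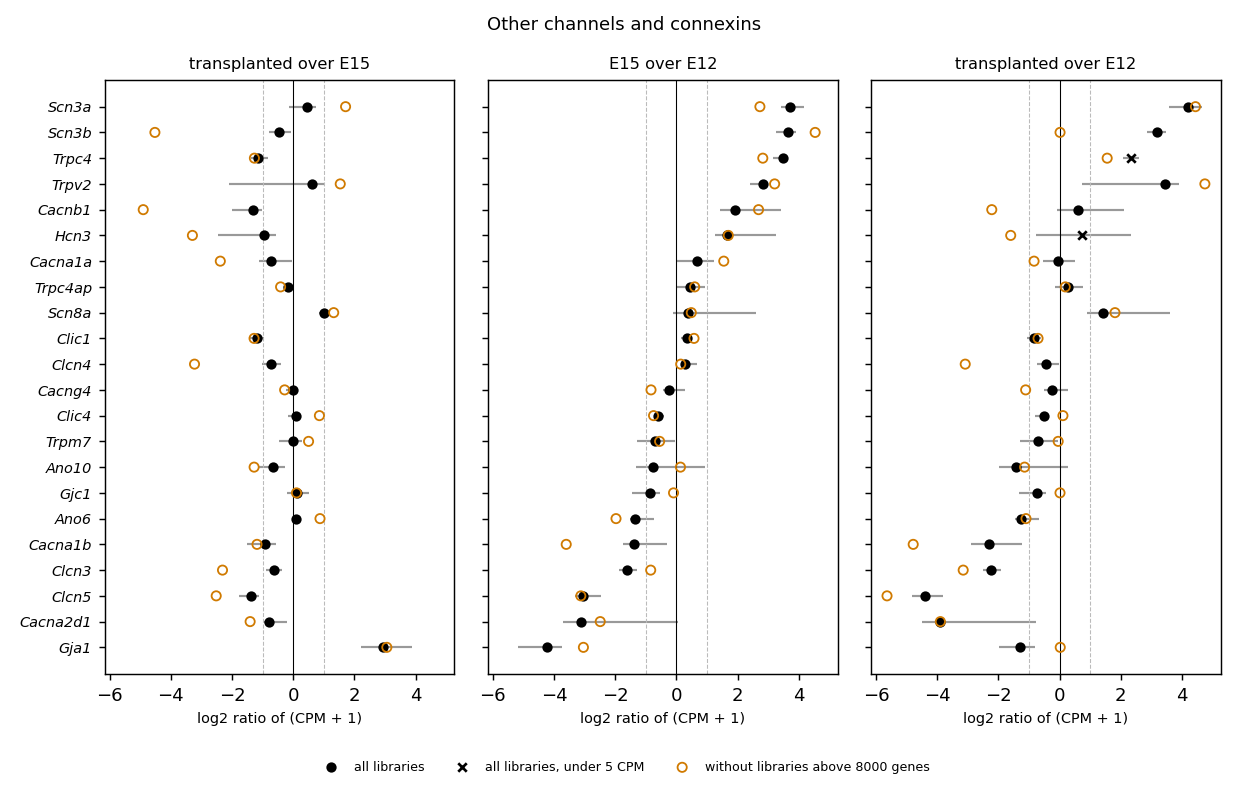
Log2 ratio of (CPM + 1) for 22 of the 34 other members, those named by the same rule, in transplanted over E15, E15 over E12 and transplanted over E12 cells, drawn as for the potassium channel members. Gja1 lies farthest left in the middle panel at -4.21 and lies right of the 2-fold line in the left panel at 2.93; Scn3a lies far right in the middle and right panels at 3.72 and 4.19.

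The sum of the voltage-gated sodium channel genes was lowest in E12 cells, though not every member had that order. The 6 members summed to 118 CPM in transplanted, 74.3 CPM in E15 and 31.6 CPM in E12 cells, and to 153, 76.7 and 31.6 CPM without the many-gene libraries. Scn3a encodes Nav1.3, the sodium channel best known from embryonic brain, and stood at 35.7 CPM (32.5 to 39.1) in transplanted, 25.6 CPM (23.99 to 27.3) in E15 and 1.01 CPM (0.328 to 2.36) in E12 cells. It was read in 10 of 19, 15 of 26 and 2 of 20 cells, and the 2 E12 cells, at 5.84 and 4.83 CPM, lay below every transplanted cell with a read. The ratio to E12 cells was 35.3 (15.01 to 109) for transplanted and 25.3 (10.8 to 78.1) for E15 cells. Neuron genes (17 measured) were also lowest in E12 cells, at 4690, 5195 and 1371 CPM, and 2590, 3255 and 1371 CPM without the many-gene libraries. Unlike Scn3a, their sum was higher in E15 than in transplanted cells both ways. The part of neuron genes in the result was not tested.

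Scn3b, the β3 subunit, was at 9.91 CPM (8.25 to 11.8) in transplanted, 14.1 CPM (12.9 to 15.3) in E15 and 0.202 CPM (0.00512 to 1.13) in E12 cells, the last from 1 read. Outside the many-gene libraries a read was left in 1 of 14 transplanted and 3 of 15 E15 cells. Scn8a, which encodes Nav1.6, was at 46.1 CPM (42.4 to 49.97), 22.4 CPM (20.9 to 23.98) and 16.8 CPM (13.4 to 20.8), with a transplanted over E15 log2 ratio of 1.01 on sums and 1.70 on the mean CPM per cell. E12 replicate 19 held 84.3% of the E12 Scn8a reads, and the E12 level without it was 2.87 CPM. The other sodium channel past 2-fold higher in transplanted than in E15 cells was Scn2a, named here after its values were seen, at 18.6, 3.98 and 2.23 CPM. Transplanted replicate 1 held 71.7% of its transplanted reads, and the level without that cell was 5.34 CPM.

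The calcium channel sums depended on the many-gene libraries. The 3 pore subunits summed to 22.6 CPM in transplanted, 38.9 CPM in E15 and 39.3 CPM in E12 cells, and the 8 auxiliary subunits to 222, 212 and 247 CPM. Once those libraries were left out, the pore sums were 6.03, 38.4 and 39.3 CPM and the auxiliary sums 100.2, 139 and 247 CPM, both lowest in transplanted cells. Cacna1b, the N-type pore of presynaptic terminals, was at 4.56 CPM (3.46 to 5.90) in transplanted, 9.53 CPM (8.56 to 10.6) in E15 and 26.5 CPM (22.2 to 31.5) in E12 cells. It was read in 3 of 19, 11 of 26 and 3 of 20 cells, so the high E12 level came from 3 cells, of which replicate 5 held 69.5%. Cacna1a, the P/Q-type pore, stood at 11.01, 18.97 and 11.5 CPM with no ratio past 2-fold over all libraries. In the other libraries its log2 ratio was -2.38 for transplanted over E15 and 1.55 for E15 over E12 cells. E15 replicate 13 held 44.7% of the E15 reads, and the E15 level without it was 11.4 CPM.

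Among auxiliary subunits Cacnb1, the β1 subunit, met the narrower rule in E15 cells against both other groups. It was at 6.06 CPM (4.78 to 7.57) in transplanted, 16.5 CPM (15.2 to 17.8) in E15 and 3.64 CPM (2.16 to 5.76) in E12 cells, from 4 of 19, 14 of 26 and 3 of 20 cells. Leaving out the many-gene libraries left no Cacnb1 read in 14 transplanted cells and 28.8 CPM in 15 E15 cells. Cacna2d1, an α2δ subunit, was highest in the E12 sum, with 3.38 CPM in transplanted and 6.64 CPM in E15 cells against 65.2 CPM (58.2 to 72.7) in E12 cells. E12 replicate 19 held 90.99% of those reads and the E12 level without it was 6.40 CPM. Cacng4, which encodes a TARP that escorts AMPA receptors, did not differ past 2-fold over all libraries, at 100.03, 99.6 and 119 CPM. In the other libraries transplanted over E12 cells gave a log2 ratio of -1.11, at 54.7 against 119 CPM.

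The Clcn family, chloride-proton exchangers of endosomes and lysosomes, had its highest sum in E12 cells, where Clcn3 and Clcn5 were both highest. Over 5 members the sums were 146 CPM in transplanted, 226 CPM in E15 and 374 CPM in E12 cells, and 69.6, 277 and 374 CPM without the many-gene libraries. Clcn5, which works in the acidification of endosomes and is best known from the kidney, was at 1.34 CPM (0.779 to 2.14) in transplanted, 5.02 CPM (4.32 to 5.79) in E15 and 48.8 CPM (42.8 to 55.3) in E12 cells. The E15 level lies just above the 5 CPM needed to enter the transplanted over E15 comparison. Clcn5 alone met the narrower rule in all 3 comparisons, with log2 ratios of -1.36 for transplanted over E15, -3.05 for E15 over E12 and -4.41 for transplanted over E12 cells. The share of cells with a read did not follow that order, at 3 of 19 transplanted, 9 of 26 E15 and 5 of 20 E12 cells. All 17 transplanted Clcn5 reads lay in many-gene libraries, and replicate 15 held 58.8% of them. Without those libraries no transplanted cell had a read, and the E15 level was 4.72 CPM, from 2 of 15 cells. That is under the 5 CPM filter, which the narrower rule applied over all libraries only.

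Clcn3, a close relative, was at 40.2 CPM (36.8 to 43.8) in transplanted, 62.4 CPM (59.9 to 65.02) in E15 and 193 CPM (181 to 206) in E12 cells, with reads in 12 of 19, 21 of 26 and 11 of 20 cells. Its transplanted over E12 log2 ratio of -2.24 was -2.40 on the mean CPM per cell and -3.15 without the many-gene libraries. Clcn4 had no ratio past 2-fold over all libraries, at 73.9, 122 and 101 CPM, but without the many-gene libraries the transplanted level was 10.99 CPM against 111 CPM in E15 and 101 CPM in E12 cells. Clic1, a soluble protein that can insert into membranes, was read in more cells than any other member, in 17 of 19, 24 of 26 and 17 of 20 cells. Clic1 was at 60.8 CPM (56.6 to 65.2) in transplanted, 139 CPM (136 to 143) in E15 and 110.1 CPM (101 to 119.7) in E12 cells, and lower in transplanted than in E15 cells in 7 of 7 pools with both groups. Clic4 was at 164, 155 and 236 CPM with no ratio past 2-fold.

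**Figure D5:**
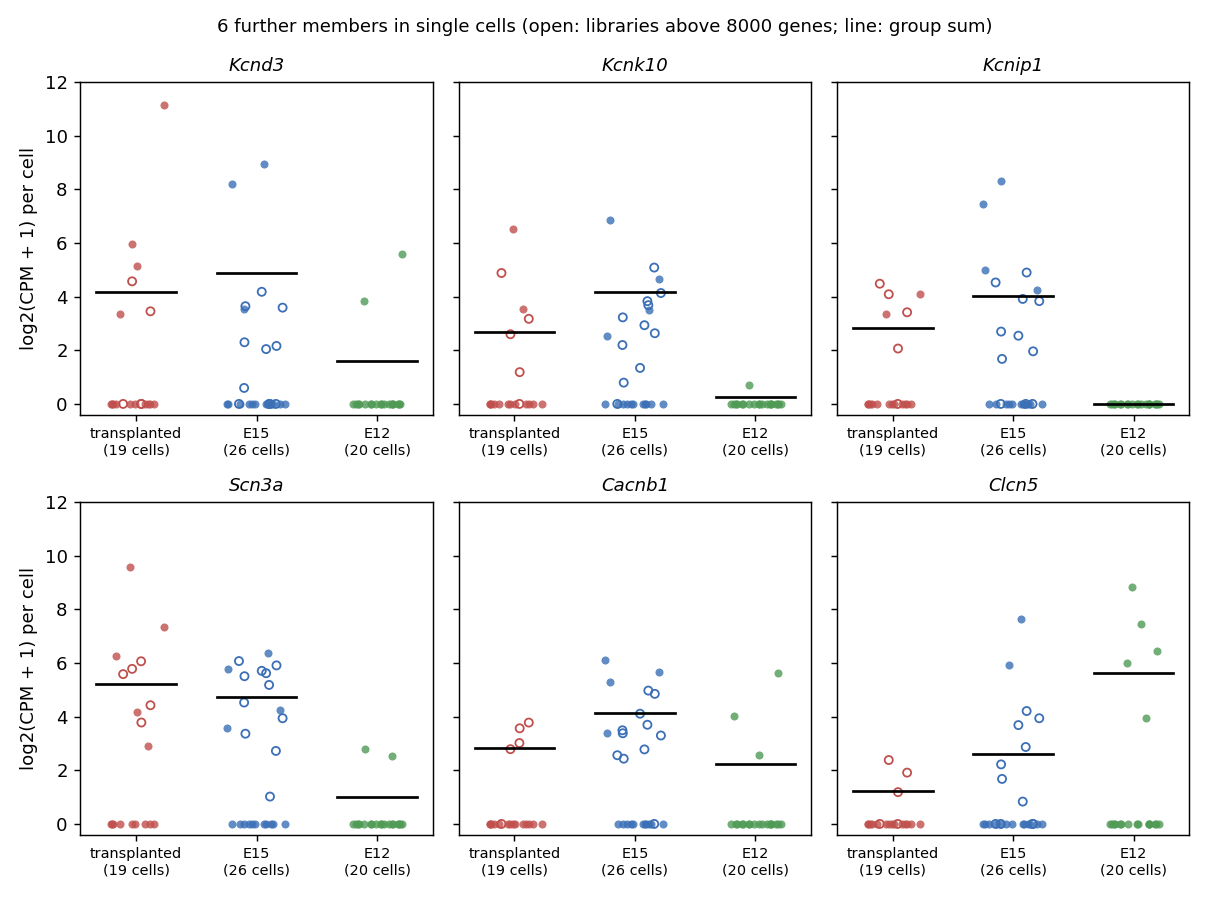
Level per cell of Kcnd3, Kcnk10, Kcnip1, Scn3a, Cacnb1 and Clcn5 as log2(CPM + 1), with transplanted, E15 and E12 cells from left to right, open circles for libraries above 8000 genes and a black line for the level of the group's summed reads. E12 cells have a Kcnip1 read in 0, a Kcnk10 read in 1 and a Scn3a read in 2 of 20 cells, and the 5 E12 cells with a Clcn5 read all lie above the highest transplanted cell, at 4.21 CPM.

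Anoctamins and TRP channels completed the set. Ano6, a calcium-activated phospholipid scramblase, was at 29.9 CPM in transplanted, 28.3 CPM in E15 and 73.04 CPM in E12 cells, and E12 replicate 5 held 55.96% of the E12 reads. Ano10 was at 17.9, 28.8 and 49.8 CPM, read in 6 of 19, 20 of 26 and 3 of 20 cells, with 71.5% of the E12 reads in replicate 1. Without those cells the E12 levels were 48.1 CPM for Ano6 and 14.7 CPM for Ano10.

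Trpc4, a receptor-operated cation channel, was at 4.01 CPM (2.99 to 5.27) in transplanted and 10.1 CPM (9.07 to 11.1) in E15 cells, with no read in 20 E12 cells. Its E15 level was 16.6-fold the E12 floor (lower limit of the ratio to E12 cells 13.4). Trpc4 was read in 4 of 19 transplanted and 13 of 26 E15 cells. Trpv2 was likewise unread in E12 cells, at 9.91 CPM in transplanted and 6.19 CPM in E15 cells. These levels were 16.3-fold and 10.2-fold the floor, with lower limits of 13.1 and 8.23 for the ratios to E12 cells. Trpv2 is also known from macrophages. Transplanted replicate 18 held 93.7% of the transplanted reads, and without it the transplanted level was 0.674 CPM, near the E12 floor of 0.607 CPM, so that excess rested on 1 cell. Trpm7, a channel joined to a kinase, did not differ past 2-fold at 28.2, 28.3 and 46.7 CPM, and neither did Trpc4ap at 127, 143 and 105 CPM. Hcn3, a pacemaker channel, was at 4.01, 8.62 and 2.02 CPM and was read in 1 E12 cell.

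Single libraries held the largest number of reads of many members. Transplanted replicate 15, a many-gene library with 28.5% of the transplanted reads, held more reads than any other transplanted cell for 31 of the 52 members. E15 replicate 13, with 7.85% of the E15 reads and 7749 genes, did so for 13 members, among them Kcnk2, Kcne1l, Kcnd3 and Kcnk10. That cell held 32810 CPM of apical progenitor genes, and its part in those results was not tested. Among members at 5 CPM or more, over 90% of the E15 reads lay in many-gene libraries for 4 of 17 potassium channel members (Kcnab2, Kcnab3, Kcnh8 and Kcnn1) and 5 of 30 others (Cacna1b, Cacna1c, Cacna2d3, Cacnb4 and Cacng2), against 9.29% of all genes. In transplanted cells this held for 6 of 18 and 7 of 28 members, against 9.95% of all genes.

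Further levels that 1 cell moved by over 1.5 times were found in all 3 groups. In transplanted cells, the level without the cell holding most reads was 10.7 CPM for Gja1, 3.41 CPM for Cacnb1, 23.05 CPM for Scn3a and 9.10 CPM for Kcnj10. It was 13.2 CPM for Kcnq1ot1, 4.95 CPM for Kcnmb4os2 and 0.770 CPM for each of Hcn3 and Clcn5. In E15 cells it was 8.72 CPM for Kcnk10, 10.5 CPM for Kcnj10, 4.08 CPM for Cacna2d1 and 0.246 CPM for Gja1. E15 replicate 19 held 83.0% of the E15 Gja1 reads. In E12 cells that level was 2.10 CPM for Kcne1l, 6.18 CPM for Kcnn2, 0.648 CPM for Cacnb1, 12.1 CPM for Cacna1b and 7.44 CPM for Cacna1a. It was 29.3 CPM for Trpm7, 0.463 CPM for Scn3a, 0.210 CPM for Kcnd3, 9.68 CPM for Kcnj10 and 0.609 CPM for Kcnmb4os2.

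Genes that act with these channels on the membrane potential and at junctions (pumps, chloride cotransporters, ligand-gated receptors, calcium-release and store channels, calmodulins, a pannexin, junction proteins and VDACs, 36 measured) were counted in the same way. In E15 over E12 cells 7 of 33 were past 2-fold higher and 10 lower (median 0.00), where 25.3% and 20.3% of all genes were. In transplanted over E15 cells 5 of 35 were higher and 2 lower (median -0.14), where 4.71% and 11.8% of all genes were. In transplanted over E12 cells 10 were higher and 10 lower of 35 (median 0.23), where 22.9% and 24.7% of all genes were. In the other libraries 8 were higher and 5 lower of 32 (median 0.25) for E15 over E12, where 24.2% and 21.6% of all genes were. For transplanted over E15 cells 6 were higher and 14 lower of 35 (median -0.55), where 18.7% and 28.0% of all genes were. For transplanted over E12 cells 8 were higher and 10 lower of 33 (median 0.17), where 22.5% and 29.8% of all genes were. Panx1, a pannexin named after its values were seen, was at 41.1 CPM in transplanted, 56.0 CPM in E15 and 153 CPM in E12 cells.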

How the data were processed

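The authors deposited 3 tables, 1 per group, with a value per gene and cell. Reads came from a 3′ end kit (SMART-Seq v4 3′ DE with Nextera XT, per the labels' protocols), and the submitters' processing notes name STAR, HTSeq and mm10 without versions. The values deposited by the authors are log10 values: log10 of 1 plus counts per 100000 of the library total, from which the mean of each gene over the 65 cells and 2 further directions had been removed, as read from the values (rank 62). What those directions were is not given in the sources used here. Reads per gene and cell were recovered from them as whole numbers (tolerance 0.01) for 10407 of 10407 genes, with 0 of 356667 non-zero values off a whole number, and replaced the deposited values in all sums. The design had assumed counts; with 1 sample per group no count model was fitted.

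Group sums were scaled by the reads of the 10407 genes, which held 94.0% to 99.3% of the library totals. Thinned values use cells of 25000 reads or more. Named genes were Kcnk2, Kcne1l and Gja1, each member meeting the narrower rule, and in each family the 2 members with the highest summed CPM. Members and lists were chosen with earlier results of these data known. Coordinates come from GENCODE on GRCm38 and promoters from RefSeq. Alternatives changed the pseudocount (0.1 or 5 CPM), the filter (20 CPM or none), the scaling (median-of-ratios size factors or library totals), the averaging and the depth, or left out single cells, pools or the many-gene libraries. Intervals used SciPy 1.17.1, tables pandas 2.3.3 and NumPy 2.4.6 under Python 3.11.15, the recovery of reads Numba 0.67.0, and plots Matplotlib 3.10.9. The ratio step was tested on simulated data, where 4-fold changes gave median log2 ratios of 1.95 and -2.04, against -0.04 for unchanged genes. Changes were set only in genes at 20 CPM or more, so members below that level were not tested this way. Values of some genes are not reported here.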

Additional observations from a re-analysis of the deposited data

How the results depend on the processing

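With 1 sample per group no setting gives a replicate check, and low depth limits members read in a few cells. Of the values answering the comparisons 352 stayed within 1.5 times or kept their sign and 16 moved. Of the values of single genes and class medians 6569 stayed, 495 moved and 36 turned sign. Each cell or pool left out counts as a setting in these totals. No paired analysis was possible because no test was run and the labels carry no replicate numbers, but groups were set side by side within pools. CPM by library total and the mean of log2 ratios within pools were added after seeing the data; the within-pool mean moved the median of all genes to -0.63 (transplanted over E15), 1.33 (E15 over E12) and 0.80 (transplanted over E12), so its counts must be read against these shifts. The cause of the changes below was not tested, except where fewer genes or cells enter.

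In transplanted over E15 cells the 4 of 51 members higher became 9 of 50 on the mean CPM per cell and 11 of 50 thinned. They became 1 of 23 at a filter of 20 CPM, 2 of 51 at a pseudocount of 5 CPM and 9 of 44 without the many-gene libraries. The 10 lower became 4 of 23 at the filter of 20 CPM and 4 of 51 at the pseudocount of 5 CPM. They became 23 of 44 without the many-gene libraries and 21 of 51 within pools. In E15 over E12 cells the 22 of 49 higher became 7 of 29 at 20 CPM and 37 of 49 within pools. The 8 lower there became 3 of 49 within pools. In transplanted over E12 cells the 18 of 49 higher became 4 of 23 at 20 CPM and 9 of 38 without the many-gene libraries. Within pools they became 29 of 49, and the 12 lower became 5 of 49. Shares of all genes were counted only for the settings of the main text. The counts at other filters, pseudocounts, averages and depths and within pools therefore have no such share beside them. With each cell left out the counts ran from 3 to 5 and from 8 to 13 (transplanted over E15, higher and lower), from 21 to 25 and from 7 to 12 (E15 over E12), and from 15 to 22 and from 10 to 15 (transplanted over E12). E12 replicate 5 gave the 12 lower of E15 over E12.

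Among the genes chosen by the naming rule, signs turned for these log2 ratios. Over all members, 4 of the 22 higher in E15 over E12 cells had the opposite sign without the many-gene libraries. Kcnn1, Kcnh8 and Cacng2 were among them, and of all genes called higher 194 of 2577 turned. In transplanted over E12 cells 4 of the 18 higher turned, Kcnh8, Cacng2 and Cacna1c included, against 187 of 2277 of all genes. Of the 12 lower there 2 turned, against 15 of 2455 of all genes. In transplanted over E15 cells Kcnk2 was 1.13 on the mean CPM per cell and 1.31 thinned, and Kcnmb4os2 was -0.37 thinned. In E15 over E12 cells Cacna2d1 was 0.089 without pool A and -3.70 to 0.047 with single cells left out, the last without E12 replicate 19, Hcn3 -0.27 thinned, and Kcnab2 -0.44 without the many-gene libraries. Within pools Cacna1b was 0.91, Clcn3 0.46, Kcnh7 1.43 and Kcnq1ot1 0.12, and the deposited log10 values gave group differences of 0.051 for Clcn3, 0.15 for Kcnh7 and 0.11 for Kcnq1ot1. In transplanted over E12 cells the potassium channel median was -1.29 at the filter of 20 CPM. Kcnj10 was 2.33 on the mean CPM per cell, 1.88 thinned, 0.060 without the many-gene libraries, 0.38 without pool E, 1.01 within pools and -2.00 to 0.65 with single cells left out, the last without E12 replicate 5. Within pools Ano10 was 1.97, Ano6 0.69, Kcnh7 1.33 and Kcnq1ot1 2.24. Ano10 was -1.99 to 0.27 with single cells left out, the last without E12 replicate 1, Ano6 was 0.080 thinned, Gja1 0.022 without the many-gene libraries, and Kcnq1ot1 0.12 on the mean CPM per cell. Kcnmb4os2 was -2.65 on the mean CPM per cell and -1.78 without the many-gene libraries. Deposited log10 differences were 0.0060 for Ano6, 0.13 for Kcnj10, -0.092 for Kcnmb4os2, 0.18 for Kcnq1ot1 and -0.029 for Scn3b.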
